A study of Homo sapiens with 6 samples.

Results

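The ends of the long arms were examined as the last 10 Mb of each human autosome except chromosome 19, cut into 200 kb bins of hg38. A bin belonged to an end if its start lay within that distance of the last base of the chromosome. This gave 50 bins on each of 21 chromosomes, 1050 of the 14091 bins of these chromosomes (7.45%), and 15453 bins make up the whole genome considered in the series. A bin was called in a library when an H3K9me3 domain covered it.

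The data were domain lists from chromatin immunoprecipitation followed by sequencing (ChIP-seq) for H3K9me3 in MCF10.DCIS.com, an oncogenic derivative of the MCF10A mammary epithelial line that models ductal carcinoma in situ. Control cells had been infected with the pSLIK-neo-EV lentivirus (empty vector) and RAB5A cells with pSLIK-neo-RAB5A, and antibiotic selection gave stable, inducible lines, which were fixed as monolayers. RAB5A is a GTPase of early endosomes, and its overexpression sets jammed monolayers in motion. Each condition was assayed with the antibody ab176916 (replicate 1) and with ab8898 (replicate 2), which gave 4 libraries, and the 2 input libraries were not analysed here. The sources describe no separate cultures for the 2 libraries of a condition, so the p-values below measure only the spread between these libraries, in which antibody and replicate cannot be told apart. Domain lists carry no expression values and no read counts, so the identity of the line was not checked and the depth of each library is unknown.

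Trimethylation of lysine 9 of histone H3 is deposited by SUV39H1, SUV39H2 and SETDB1 and is bound by HP1 proteins, which compact the chromatin. It is found over pericentromeric repeats, silent clusters of zinc finger and olfactory receptor genes and large gene-poor regions. A human chromosome ends in telomeric repeats, next to which lie duplicated subtelomeric segments and, further in, unique sequence that is often rich in GC and in genes.

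The 250 bases upstream of the RefSeq gene start (GRCh38.p14, each identical to hg38) are shown for 7 genes that start inside these domains, because their promoters differed widely in CpG content. Every CpG is in capitals.
OR2T8, chr1:247920002-247920251 (+ strand): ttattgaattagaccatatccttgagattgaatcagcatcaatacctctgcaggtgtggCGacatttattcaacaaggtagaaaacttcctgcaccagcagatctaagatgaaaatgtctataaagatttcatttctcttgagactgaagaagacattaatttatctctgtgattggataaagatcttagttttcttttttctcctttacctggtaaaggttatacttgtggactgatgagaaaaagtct
ZNF354A, chr5:178730660-178730909 (- strand): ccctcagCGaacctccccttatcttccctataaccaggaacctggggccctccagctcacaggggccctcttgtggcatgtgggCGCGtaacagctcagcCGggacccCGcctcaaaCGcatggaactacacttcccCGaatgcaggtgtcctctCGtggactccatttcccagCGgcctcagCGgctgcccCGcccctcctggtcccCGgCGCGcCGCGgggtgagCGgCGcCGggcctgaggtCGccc
DPP6, chr7:153886792-153887041 (+ strand): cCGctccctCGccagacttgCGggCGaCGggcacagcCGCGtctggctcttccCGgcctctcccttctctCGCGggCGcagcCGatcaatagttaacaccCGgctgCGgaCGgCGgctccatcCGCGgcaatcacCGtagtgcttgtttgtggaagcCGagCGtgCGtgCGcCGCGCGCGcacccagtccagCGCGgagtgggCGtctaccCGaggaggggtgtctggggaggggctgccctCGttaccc
DSCAM, chr21:40847159-40847408 (- strand): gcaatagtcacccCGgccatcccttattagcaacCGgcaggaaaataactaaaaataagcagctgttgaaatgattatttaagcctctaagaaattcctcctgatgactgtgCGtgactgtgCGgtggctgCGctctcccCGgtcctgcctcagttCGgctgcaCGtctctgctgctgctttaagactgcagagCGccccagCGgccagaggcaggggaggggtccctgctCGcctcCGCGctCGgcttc
TMEM132D, chr12:129904026-129904275 (- strand): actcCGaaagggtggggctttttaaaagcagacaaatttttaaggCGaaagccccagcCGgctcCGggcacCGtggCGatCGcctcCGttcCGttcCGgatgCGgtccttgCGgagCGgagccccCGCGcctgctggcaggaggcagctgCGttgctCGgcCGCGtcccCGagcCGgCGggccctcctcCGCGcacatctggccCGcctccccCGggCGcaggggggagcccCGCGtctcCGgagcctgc
TAFA5, chr22:48489303-48489552 (+ strand): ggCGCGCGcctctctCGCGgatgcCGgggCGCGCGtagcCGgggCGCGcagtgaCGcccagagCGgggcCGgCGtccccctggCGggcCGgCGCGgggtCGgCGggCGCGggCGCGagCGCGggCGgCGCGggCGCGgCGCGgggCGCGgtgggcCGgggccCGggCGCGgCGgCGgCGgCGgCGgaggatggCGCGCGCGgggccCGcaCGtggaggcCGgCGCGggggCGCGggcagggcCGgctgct
SMOC2, chr6:168440934-168441183 (+ strand): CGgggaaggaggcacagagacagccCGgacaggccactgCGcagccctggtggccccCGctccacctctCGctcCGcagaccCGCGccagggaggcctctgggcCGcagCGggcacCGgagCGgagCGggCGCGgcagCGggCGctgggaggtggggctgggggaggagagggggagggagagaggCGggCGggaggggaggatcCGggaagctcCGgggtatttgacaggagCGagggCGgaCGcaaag

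OR2T8, an odorant receptor gene, had 1 CpG in this stretch, and ZNF354A, which encodes a KRAB zinc finger protein, had 20. DPP6 (an auxiliary subunit of neuronal potassium channels) had 32, DSCAM (a neuronal adhesion receptor) 14, TMEM132D (a transmembrane protein) 30, TAFA5 (a secreted chemokine-like protein) 58 and SMOC2 (a matrix protein) 24.

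Chromosome ends were more often in domains than the remainder of the same chromosomes, and they were so in each of the 4 libraries. Of the 1050 end bins, 164 were called in control ab176916, against a background of 6.41% of all bins of the 21 chromosomes in that list. The number was 168 in control ab8898 (background 6.19%), 168 in RAB5A ab176916 (6.42%) and 173 in RAB5A ab8898 (6.29%). The called share of the ends was thus 15.6%, 16%, 16% and 16.5%, whereas that of the other 13041 bins was 5.67%, 5.4%, 5.64% and 5.47%. The 4 end values and the 4 other values did not overlap, and the difference was 10.5 ± 0.443 percentage points (SD, n = 4), positive in 4 of 4 libraries. The exact two-sided sign-flip test over the 4 libraries gave p = 0.12, the smallest that it allows. The fold between ends and other bins was 2.76, 2.96, 2.83 and 3.01. Ends held 18.2%, 19.3%, 18.6% and 19.5% of all called bins, as 32.8, 33.6, 33.6 and 34.6 Mb of domain.

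The opposite ends were covered more densely still. On the 16 chromosomes on which the first 10 Mb could be used, 21.5%, 21.4%, 21.4% and 21.6% of 800 bins were called in the same order of libraries. The long-arm value was lower by 5.44 ± 0.31 points (SD, n = 4; lower in 4 of 4 libraries; exact sign-flip test, p = 0.12). These short arms belong to fewer chromosomes than the long arms, so the difference is also one of the chromosomes compared.

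Within the last 10 Mb, coverage was highest some way in from the end. In the outermost 1 Mb, 3.51% of 114 bins were called in control ab176916, 8.77% in control ab8898, 7.89% in RAB5A ab176916 and 8.77% in RAB5A ab8898. The share rose to a mean of 28.8% between 1 and 2 Mb and 34.8% between 2 and 3 Mb, where the libraries lay between 32.4% and 36.2%. It was 21% between 3 and 4 Mb in every library and 8.33% between 9 and 10 Mb. The outermost 1 Mb had the highest gene density, 16.1 protein-coding gene starts per Mb. Between 1 and 2 Mb, where a mean of 28.8% was called, the density was nearly the same, at 15.7. On 4 arms a domain came within 1 Mb of the end in at least 1 library. In the libraries that reached farthest, it stopped 0.146 Mb before the last sequenced base of the assembly on chromosome 1, 0.736 Mb on chromosome 7, 0.0633 Mb on chromosome 18 and 0.808 Mb on chromosome 22. In control ab176916 the domains of chromosomes 18 and 22 stopped 1.17 and 1.02 Mb from the chromosome end. The outer domain of chromosome 7 was called with ab8898 only. The 114 bins include the 21 incomplete last bins of the chromosomes. These were called in 0 of the 4 libraries, so the lists do not show the terminal bases themselves. Of the end bins, 25 had more than 10% undetermined bases, and 0 of these were called. The authors' caller left out unalignable regions, so such bins may not have been open to a call. How far this lowered the outer share was not tested.

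**Figure D1:**
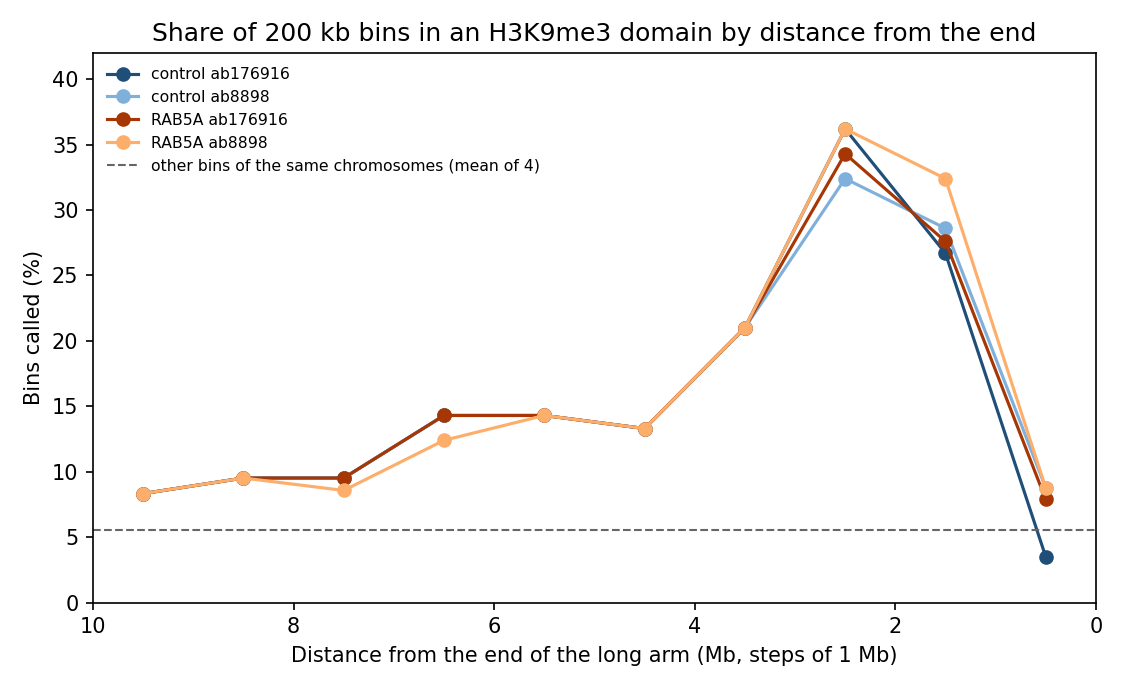
Share of 200 kb bins in an H3K9me3 domain (y axis, percent) by distance from the end of the long arm (x axis, Mb, in steps of 1 Mb), with a line for each of the 4 libraries. The lines run on top of each other over most of the range, peak at 32.4% to 36.2% between 2 and 3 Mb, and separate mainly in the outermost 2 Mb, where control ab176916 is lowest.

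The calls were concentrated on a part of the chromosomes. A called end bin was found on 13 of 21 chromosomes in any library and on 12 in all 4. Chromosomes 2, 3, 4, 8, 13, 15, 16 and 17 had 0 called end bins in every library. On 7 of these 8 chromosomes domains were present elsewhere, with chromosome 16 at a mean of 24.4% of its other bins, while chromosome 4 had none at all. The end was called more densely than the remainder on 12 chromosomes. Chromosome 21 was the exception among those with a called end, at 18% of end bins against a mean of 27% of its other bins.

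Chromosome 12 was covered most, with 33 of 50 end bins (66%) in each library against a mean of 1.7% of its other bins. Its end held 76.7% of the called bins of the chromosome in each control library, 67.3% in RAB5A ab176916 and 84.6% in RAB5A ab8898. Chromosome 7 had 21 end bins (42%) in control ab8898, but by the mean of the 4 libraries chromosome 10 followed, with 20 (40%) in each. Here the end made up 36.4% of the chromosome's calls in control ab176916 and 52.6% in control ab8898, but 69% in both RAB5A libraries, since the calls elsewhere on chromosome 10 differed while those at its end did not. On chromosome 6 the only domain of the chromosome lay at the end of its long arm. The number of called end bins was identical in the 4 libraries on 8 chromosomes, namely 1, 5, 10, 11, 12, 14, 20 and 21.

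**Figure D2:**
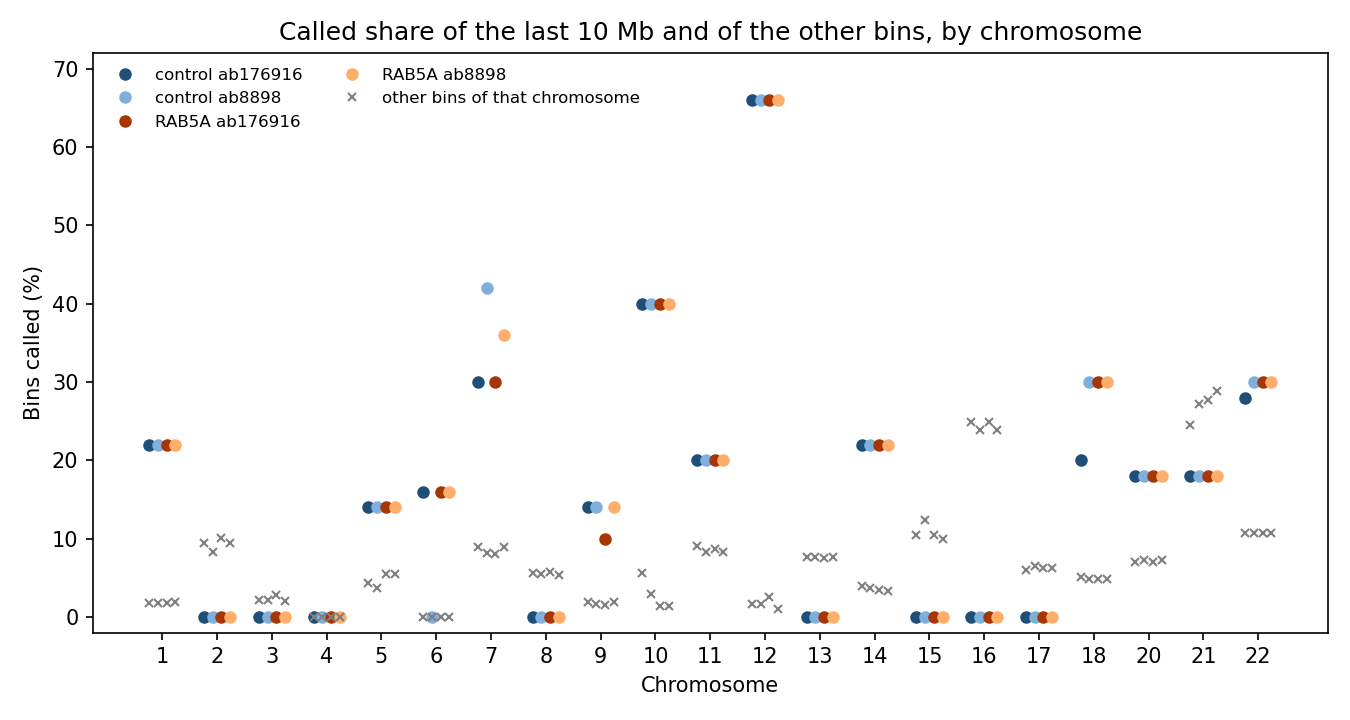
Called share of the 50 end bins (circles, a colour for each of the 4 libraries) and of the other bins (grey crosses) of each of the 21 chromosomes, in percent. Chromosome 12 stands highest at 66% in every library, 8 chromosomes stand at 0, and the circles of a chromosome separate only on chromosomes 6, 7, 9, 18 and 22.

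The domains fell into 14 loci, of which 12 were present in all 4 libraries and 7 had the same first and last bin in each list. Those 7 were chr1:246600001-248800000, chr5:178200001-179600000, chr10:128200001-132200000, chr11:132000001-134000000, chr12:125200001-131800000, chr20:54400001-56400000 and chr21:39400001-41200000. They spanned 2.2, 1.4, 4, 2, 6.6, 2 and 1.8 Mb. The lists held 13, 13, 13 and 14 domains at these ends, of median length 2, 2.2, 2.2 and 2.1 Mb. The chromosome 12 domain was also among the highest by the score of the caller, at rank 4 of 78, 3 of 76, 4 of 79 and 2 of 76. By contrast, the domain of chromosome 1 ranked 75, 76, 72 and 73 in the same lists, so identical limits were found for high and for low scores. The domains of chromosomes 14 and 20 began just outside the last 10 Mb, and their whole extent is given. All limits are known only to the nearest 200 kb.

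In another 5 loci a domain was present in every library but a limit moved. The chromosome 18 domain ran from chr18:77200001-80200000 in 3 libraries and stopped 1 Mb earlier, at 79200000, in control ab176916. On chromosome 22 the same library stopped at 49800000, where the others extended over chr22:47000001-50000000. On chromosome 9 RAB5A ab176916 ended at 135400000 and the others covered chr9:134400001-135800000. On chromosome 7 the domain chr7:152200001-155200000 began at 152800001 in RAB5A ab8898, and on chromosome 14 that library began at 96600001 instead of 96800001. Each of these shifts was therefore made by 1 library, which was a control library in 2 of the 5 and a RAB5A library in 3.

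The remaining 2 loci were missing from some libraries. The domain chr6:168000001-169600000 was called in control ab176916, RAB5A ab176916 and RAB5A ab8898 but not in control ab8898, with ranks of 77 of 78, 73 of 79 and 70 of 76. The domain chr7:157400001-158600000 was called with ab8898 in both conditions (rank 74 of 76 in control and 75 of 76 in RAB5A) and with ab176916 in neither. Both loci thus sat near the bottom of the score order of their lists.

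**Figure D3:**
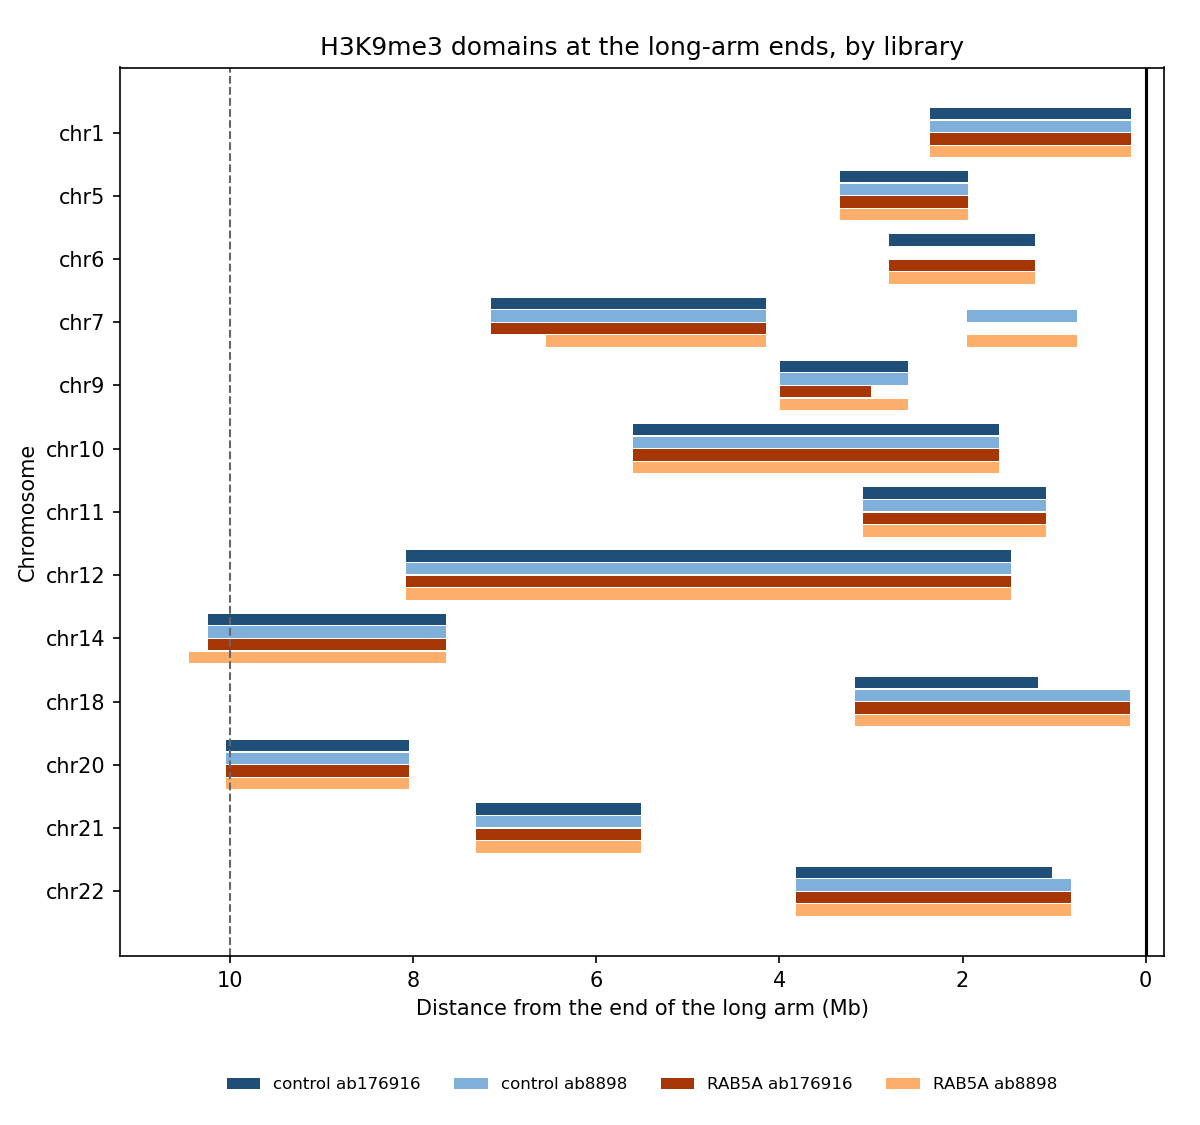
H3K9me3 domains in the last 10 Mb of the 13 long arms that held any, as bars against the distance from the chromosome end (x axis, Mb), with a row for each of the 4 libraries within a chromosome. The bars of the 4 libraries end together on most arms, the chromosome 6 domain lacks a bar in control ab8898, and the outer chromosome 7 domain has bars for ab8898 only.

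The comparison between control and RAB5A asked whether fluidized monolayers differed in the extent of these domains. Control libraries called 166 ± 2.83 end bins and RAB5A libraries 170.5 ± 3.54 (SD, n = 2 per condition). RAB5A was thus higher by 4.5 bins (p = 0.67 by exact permutation of the 6 labellings, two-sided). The difference was 4 bins with ab176916 and 5 with ab8898. The single values overlapped, since control ab8898 and RAB5A ab176916 both had 168. As a share of the ends, RAB5A exceeded control by 0.429 points, against 0.023 points in the other bins, and the difference between ends and other bins was 10.3 ± 0.459 points in control and 10.7 ± 0.461 in RAB5A (SD, n = 2 per condition; exact permutation test, p = 0.67). The smallest p that 2 against 2 libraries allow is 0.33, so that this design could not separate the conditions at 0.05.

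Bins that followed the condition were rare over all bins of the 21 chromosomes, and the ends held 0 of them. Of the 176 end bins called in any library, 151 (85.8%) were called in all 4, which is 14.4% of the end bins against 5.59% of all bins of the 21 chromosomes. Bins specific to RAB5A (its 2 libraries, no control library) numbered 0 at the ends, with a background of 0.128% of all bins (18, all outside the ends). Bins specific to control also numbered 0, with a background of 0.0781% (11 bins). With backgrounds this low, 0 of 1050 bins lies near the background and is not a trait of the ends. Bins called with ab8898 alone numbered 6, the outer chromosome 7 domain, with a background of 0.135%, and those called with ab176916 alone 0 (0.0994%). The other 19 were called in 3 libraries, with control ab8898 missing from 8, control ab176916 from 6, RAB5A ab8898 from 3 and RAB5A ab176916 from 2. These 19 were 10.8% of the called end bins, and 62 of the 803 called bins elsewhere (7.72%) were called in 3 libraries, with the same libraries missing from 23, 7, 22 and 10. No end bin was called in 1 library alone, whereas 48 of the 803 called bins elsewhere (5.98%) were. Neighbouring bins are called together and the end calls fell into 14 loci, so bins are not separate observations. Whether this contrast is a trait of the ends was not tested.

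Similarity of the libraries was expressed as the Jaccard index, the end bins called in both libraries of a pair divided by those called in either. It was 0.953 for the ab176916 libraries and 0.938 for the ab8898 libraries. Within a condition it was 0.886 in control and 0.938 in RAB5A, and the pairs that shared neither gave 0.915 and 0.909. The control pair was therefore the least alike of the 6, and whether antibody or condition ordered the pairs was not tested.

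The genes at these ends were counted by the bin of their start. In control ab176916, 140 of the 1796 protein-coding genes of the ends started in a called bin (7.8%), with a background of 2.56% of the protein-coding genes of the 21 chromosomes. The numbers were 151 in control ab8898 (background 2.81%), 143 in RAB5A ab176916 (2.6%) and 152 in RAB5A ab8898 (2.77%). RAB5A exceeded control by 2 genes, 147.5 ± 6.36 against 145.5 ± 7.78 (SD, n = 2 each; exact permutation test, p = 0.67), and the ranges overlapped. The direction turned when a library was left out, to -3.5 genes without control ab176916 and -2.5 without RAB5A ab8898. In all 4 libraries 122 genes were in a called bin (6.79% of the end genes, against 2.35% of all). Called end bins held 4.27, 4.49, 4.26 and 4.39 gene starts per Mb and uncalled end bins 9.44, 9.42, 9.47 and 9.47. Chromosome 1 contributed 60 of the 122 genes, and without it the density of called bins fell to between 2.61 and 2.9 per Mb.

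Olfactory receptor genes made up the largest group. These odorant receptors of sensory neurons form clusters on many chromosomes, and 45 of the 54 at the long-arm ends were called in all 4 libraries (83.3%), against 105 of 394 on the 21 chromosomes (26.6%). All 45 lay in 1 domain of chromosome 1, from OR2B11 to OR14I1, with long runs of the OR2T, OR2M and OR2L families. Their share thus rests on a single domain, which ranked low by score in each list (75 of 78, 76 of 76, 72 of 79 and 73 of 76). The same domain held NLRP3, a sensor of the inflammasome, and AHCTF1, a nuclear pore protein, together with ZNF695, ZNF670, ZNF669, ZNF124 and ZNF496. Zinc finger genes, many of which encode DNA-binding repressors, were called in all 4 libraries in 11 of 50 cases (22%, against 11.9% of the 285 on these chromosomes). The other 6 were ZNF354A, ZNF354B, ZNF354C, ZNF454, ZNF879 and ZFP2 on chromosome 5, where COL23A1 (a collagen), ADAMTS2 (a procollagen protease) and GRM6 (a glutamate receptor of the retina) lay in the same domain. The number of called zinc finger genes was 11 in each of the 4 libraries and that of olfactory receptor genes 45. The zinc finger share likewise rests on the domains of chromosomes 1 and 5 alone. Of all protein-coding genes, 6.79% at the ends were called in all 4 libraries, against 2.35% on the 21 chromosomes. A higher share at the ends was therefore not particular to these 2 lists.

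Some of the remaining domains held genes of the list of neuronal adhesion and synapse genes. Of 4 adhesion and synapse genes at these ends, DPP6 and DSCAM were called in all 4 libraries, PTPRN2 with ab8898 alone and SHANK3, a scaffold of the postsynaptic density, in none. On the 21 chromosomes, 10 of the 37 genes of this list (27%) were called in all 4 libraries, against 2.35% of all protein-coding genes there. At the ends, 6.79% of all genes were called in all 4 libraries, and a list of 4 genes does not separate such shares. PTPRN2, a phosphatase-like protein of secretory vesicles, lay wholly inside the outer chromosome 7 domain, which covered 0% of it in control ab176916, 100% in control ab8898, 0% in RAB5A ab176916 and 100% in RAB5A ab8898. These values only restate the domain, which was called in both ab8898 libraries, at ranks 74 and 75 of 76, and in neither ab176916 library. Antibody and replicate cannot be told apart here. On chromosome 11, outside this list, OPCML (1118 kb) and IGSF9B, both immunoglobulin-type adhesion proteins, started in the domain in all 4 libraries, and 34.9% of the neighbouring NTM was covered although its start was not. Outside chromosome 1, the genes called in all 4 libraries had a median length of 46.9 kb (n = 62) and those called in none 23.6 kb (n = 1608). With chromosome 1 included the order was turned, at 17.8 kb (n = 122) and 23.8 kb (n = 1641).

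The 6.6 Mb domain of chromosome 12 held 11 protein-coding genes. They included TMEM132D and TMEM132C of a family of neural transmembrane proteins, RIMBP2 (a protein of the presynaptic active zone), ADGRD1 (an adhesion G-protein-coupled receptor), FZD10 (a Wnt receptor) and PIWIL1 (a germline piRNA-binding protein). It also held genes of general use, among them RAN, the GTPase of nuclear transport, and SFSWAP, a splicing regulator. On chromosome 10 the domain contained MGMT, which repairs alkylated guanine, EBF3, a transcription factor of neural development, and GLRX3, a glutaredoxin. On chromosome 14 BCL11B, a transcription factor of T-cell development, was the only protein-coding gene to start in a stretch of 2.2 Mb, and on chromosome 22 TAFA5 was the only one in 2.8 Mb. On chromosome 20 AURKA, a mitotic kinase, and its neighbour CSTF1, a polyadenylation factor, started in the domain, with CBLN4 (a synaptic organizer) and MC3R (a melanocortin receptor). Further genes with their start in a bin called in all 4 libraries were OLFM1, FCN1, FCN2 and COL5A1 (a fibrillar collagen) on chromosome 9, PAXIP1 and the serotonin receptor gene HTR5A on chromosome 7, and GALR1 (a galanin receptor) and SALL3 on chromosome 18. DSCAM shared its domain on chromosome 21 with B3GALT5, BACE2 (a protease related to the beta-secretase), SH3BGR, PCP4 and IGSF5. The domain calls gave no information on whether any of these genes was transcribed.

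The stretches that were missing from 1 library differed in gene content, and the genes given here were chosen after their values were seen. The outer 1 Mb of the chromosome 18 domain, absent in control ab176916, held 9 genes including NFATC1 (a calcineurin-dependent transcription factor), CTDP1 (a phosphatase of RNA polymerase II) and KCNG2 (a potassium channel subunit). ATP9B, a phospholipid flippase, spanned the boundary and was covered over 42.3% in control ab176916 and 100% in the others. The chromosome 9 stretch of 0.4 Mb that was absent in RAB5A ab176916 held 11 genes, among them KCNT1 and the lipocalins LCN1, LCN9, OBP2A and PAEP. The chromosome 6 domain, absent in control ab8898, held SMOC2 and THBS2 (matrix proteins), DACT2 (a regulator of Wnt signalling) and FRMD1. The start of the chromosome 7 domain, absent in RAB5A ab8898, held KMT2C (a histone H3 lysine 4 methyltransferase), XRCC2 (a factor of homologous recombination) and ACTR3B. Altogether 32 genes started in bins called in 3 libraries, 14 of them missing in control ab176916, 11 in RAB5A ab176916, 4 in control ab8898 and 3 in RAB5A ab8898.

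Other groups at the ends had 0 called members in each library, beside 6.79% of all end genes called in all 4, and lists of this size do not separate these shares. These were 16 keratin-associated protein genes, 9 members of multigene families typical of subtelomeres (among them DUX4, FRG1, FRG2 and RABL2B), 7 ribosomal protein genes and 4 cadherins (CDH13, CDH15, CDH26 and CDH4). The interferon-induced GTPases MX1 and MX2 on chromosome 21, the RNA editing enzyme ADARB1 and the H3K9 methyltransferase EHMT1 were likewise outside the domains. On the 21 chromosomes, 0 of 94 keratin-associated protein genes, 1 of 23 of the subtelomeric families, 0 of 64 ribosomal protein genes and 2 of 86 cadherins and protocadherins were called in all 4 libraries. Of 207 microRNA hairpins at the ends, 16 were in bins called in all 4 libraries, against 45 of 1331 on the 21 chromosomes.

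Called end bins were slightly poorer in GC than uncalled ones. The GC content was 44.7%, 45.1%, 44.8% and 45.1% in called bins and 46%, 45.9%, 46% and 45.9% in uncalled bins. The difference was -1.08 ± 0.271 points (SD, n = 4; negative in 4 of 4 libraries; exact sign-flip test, p = 0.12, the smallest possible), and its sign turned to 0.373 when the last 20 Mb were taken. The observed to expected ratio of CpG was 0.274, 0.284, 0.28 and 0.285 in called and 0.307, 0.305, 0.306 and 0.305 in uncalled bins. Called bins elsewhere on these chromosomes had a GC content between 40% and 40.2%, below that of the called ends in every library. Uncalled bins elsewhere had 40.4% in each library, so the higher GC content was shared by called and uncalled ends.

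Individual loci departed widely from these means. GC content ran from 39.1% on chromosome 20 to 54% on chromosome 9, and gene density from 0.714 starts per Mb on chromosome 14 to 27.3 on chromosome 1. The chromosome 1 locus combined a GC content of 40.4% with the highest density. The outer chromosome 7 locus combined 51.5% GC with 0.833 starts per Mb.

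**Figure D4:**
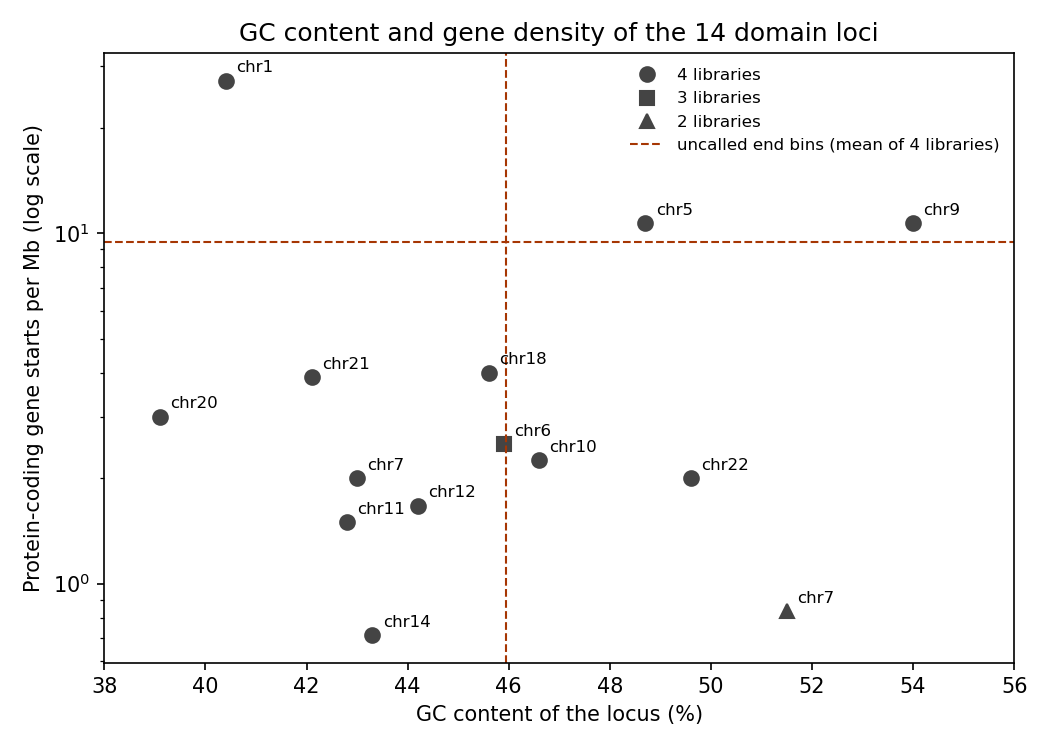
GC content (x axis, percent) and protein-coding gene starts per Mb (y axis, log scale) of the 14 loci, with symbols for the number of libraries that called them and dashed lines for the mean of the uncalled end bins. Most loci lie below the dashed line for gene density, chromosome 1 lies highest at 27.3 starts per Mb, and chromosome 9 lies farthest to the right at 54% GC.

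Promoters in the domains ranged from CpG-poor to CpG-rich. For these counts the 250-base stretch upstream of the start in GENCODE 44 was used. The stretches printed above lie upstream of the RefSeq start, which differs from it for DPP6 and SMOC2. A stretch was taken as CpG-rich when its GC content was at least 55% and its observed to expected CpG ratio at least 0.6. Of the 122 genes called in all 4 libraries, 50 (41%) had a CpG-rich stretch, against 976 of the 1641 end genes called in none (59.5%) and 48% of all genes of the 21 chromosomes. The olfactory receptor genes, of which OR2T8 above is an example with 1 CpG, had a median of 1 CpG, and 0 of 45 were CpG-rich. Without olfactory receptors, 50 of 77 (64.9%) were CpG-rich, against 976 of 1632 (59.8%) in the uncalled ends, and the median CpG number was 20 and 21. The zinc finger genes of the domains were CpG-rich in 8 of 11 cases.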

How the data were processed

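The 4 H3K9me3 ChIP-seq libraries, made from MCF10.DCIS.com cells with empty vector or RAB5A, were used. Per the labels and the methods, the authors trimmed reads with Trimmomatic (0.39), aligned them to hg38 with BWA (0.7.17-r1188), marked duplicates with Picard (2.22), filtered them with SAMtools (1.9) and called broad domains against input in each library with EDD. The deposited lists give, for each domain, its position and a score of the caller without stated unit, which was used only for ranks and a filter. EDD joins enriched bins across gaps according to a penalty, so limits and lengths depend on that setting, and signal below the calling threshold is not visible. The caller was run with an exclusion list of unalignable regions and a required fraction of informative bins. Libraries were not pooled. Depth is not in the lists, so that no counting error could be given.

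A bin counted as called when a domain covered it. Genes were protein-coding genes of GENCODE 44, on the same build. Calls were counted with Python 3.11.15 and NumPy 2.4.6, and sequences were read with samtools 1.23.1. Conditions were compared by exact permutation of the 4 libraries, and ends with other bins by exact sign-flip tests. These steps were tested on simulated data. The bins, gene lists and tests were chosen with earlier results of these data known. By rule, the genes to be named were up to 6 per stretch called in all 4 libraries, longest first. Those of stretches specific to a condition or antibody and called members of the lists were added, except where stated. Not all genes that met this rule were named. TCERG1L, JAKMIP3 and GLT1D1, for example, were left out of the descriptions above, and no criterion is given for such omissions. NLRP3, GRM6, FZD10, PIWIL1, RAN, GLRX3, NTM and the uncalled list members (SHANK3, MX1, MX2, ADARB1, EHMT1, DUX4, FRG1, FRG2, RABL2B and the cadherins) fall outside this rule and were chosen after their values were seen. Genes without a symbol are not named, and some items are not reported here.

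Replicate numbers stand for antibodies in the labels. The deviations from the condition means of the 2 libraries of an antibody correlated with r = 0.4 over 176 end bins, and r = 0.322 over 979 bins of the 21 chromosomes, so they were also treated as pairs. Alternatives were windows of 5 and 20 Mb, a score filter, merging of domains closer than 400 kb, chromosome 19 included, chromosome 12 left out, bins with undetermined bases left out, other overlap rules and each library left out.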

Additional observations from a re-analysis of the deposited data

How the results depend on the processing

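Of 105 alternative values, 3 reversed, 15 moved beyond the limit set for their kind of value, and the other 87 kept their direction and side of the threshold, although not always their size. The excess of end bins over other bins was positive in all alternatives run, from 4.79 points with the last 20 Mb to 15.2 with the last 5 Mb, and from 10.2 to 10.8 with a library or an antibody left out. Pairing by antibody (replicate block) left the RAB5A difference at 0.429 points and 2 genes (exact sign-flip test, p = 0.5, the smallest for 2 pairs) and changed no call. The RAB5A difference was 1.14 points with the last 5 Mb and 13 genes with the score filter (exact permutation test, p = 0.67 for each). With the last 20 Mb it was 0.333 points (exact permutation test, p = 0.33, the smallest that 2 against 2 libraries allow). With a library left out, it ranged from 0.19 to 0.667 points and from -3.5 to 7.5 genes, with -3.5 without control ab176916 and -2.5 without RAB5A ab8898. The GC difference was -2.14 points with the last 5 Mb and turned to 0.373 with the last 20 Mb. Bins called in all 4 numbered 95 with the last 5 Mb. Bins specific to RAB5A numbered 6 with the last 20 Mb, and 6 to 8 with an antibody left out, when those specific to control numbered 2 to 3. The Jaccard contrast between antibody and condition was 0.0333, moving to 0.000532 with the last 20 Mb and 0.0659 with the score filter. The share of end genes in called bins moved to 11.6% (5 Mb), 4.86% (20 Mb), 3.2% (score filter), 17.3% (chromosome 19 included), 7.79% (without chromosome 12), 8.87% (any overlap of the gene) and 5.08% (without chromosome 1, chosen after seeing the data). The cause of these shifts was not tested. Depth per library is unknown, so that calls missing from 1 library may not be read as absence of the mark.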
